A study of Mus musculus with 4 samples.

Results

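The interleukin 1 family of cytokines, with its receptors, its antagonist and the protease caspase-1, was examined in Langerhans cells sorted from mice that had received TCDD. The set comprised 10 of the 12393 genes named on the array (Il1b, Il1a, Il18, Il1f10, Il1rn, Il1r1, Il1rap, Il1r2, Il18r1 and Casp1). Its members were all probe sets that the platform annotation assigned to exactly 1 of these symbols, which gave 14 of the 22626 non-control probe sets on the array. The genes were picked with the TCDD comparison in view, because Il1b and Il1r1 read higher and Il1f10 lower on both TCDD arrays. Differences between TCDD and control are therefore given for all 14 probe sets as a description, with no test.

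Langerhans cells are antigen-presenting cells that reside in the epidermis. The dioxin TCDD activates the aryl hydrocarbon receptor, a ligand-dependent transcription factor. The study held 4 one-colour Affymetrix arrays, 1 per sample, and compared 2 TCDD samples with 2 controls. TCDD 1 received 10 µg TCDD in 100 µl oil and names no skin site, and TCDD 2 received 10 µg TCDD in 100 µl DMSO and oil and came from back skin. Control 1 received 100 µl DMSO and olive oil and names no skin site, and control 2 came from back skin. Cells were isolated 24 h after injection into the peritoneum and were sorted to a stated purity of 95%. The labels used here give no strain, sex, age or genotype, and do not say how many mice went into a sample. The treatment text of control 2 names TCDD, whereas its title and description name a control. It was grouped by title and description, and values without it are given for most members and for the pathway genes Nlrp3, Irak1, Ecsit and Ikbkg. The controls with and without a named site are also labelled as separate experiments, so site and experiment cannot be told apart, and the term preparation is used for both. Nothing in the labels shows that samples are separate animals, so p-values measure only the spread between these samples.

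Interleukin 1 alpha and interleukin 1 beta signal through the type I receptor Il1r1, which needs the accessory chain Il1rap. The antagonist Il1rn occupies the same receptor without signalling, and the type II receptor Il1r2 is a decoy that binds the cytokine but transmits no signal. Il1b and Il18 are made as inactive precursors that caspase-1 cleaves within inflammasomes. In the skin, interleukin 1 beta from Langerhans cells is known as an early signal that promotes their migration to draining lymph nodes. Il1f10 encodes a further family member, also called interleukin 38, which is expressed in skin and is thought to act as an antagonist.

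The aryl hydrocarbon receptor, paired with Arnt, binds DNA at the core GCGTG. Windows of 300 bases, from 250 before to 50 after annotated starts (RefSeq, build GRCm38.p6), were available for all 10 genes. There were 15 windows, since some genes have several, and those of Il1rn and Il18r1 overlap in part. The windows of the 3 genes whose values led to the choice of this set, and of Il1rap, which held the most GCGTG matches, are printed 5′ to 3′ on the gene's strand. Capitals mark GCGTG, the TATA sequence TATAAA and the nuclear factor kappa B consensus, each on either strand, and overlapping matches would merge.
Il1b, chr2:129371090-129371389, minus strand: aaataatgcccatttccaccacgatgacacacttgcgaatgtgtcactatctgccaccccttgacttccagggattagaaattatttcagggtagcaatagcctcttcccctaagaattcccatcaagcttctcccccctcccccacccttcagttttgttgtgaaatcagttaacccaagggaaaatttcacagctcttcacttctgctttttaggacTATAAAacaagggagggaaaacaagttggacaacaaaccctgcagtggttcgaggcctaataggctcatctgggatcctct
Il1r1, upstream start, chr1:40224830-40225129, plus strand: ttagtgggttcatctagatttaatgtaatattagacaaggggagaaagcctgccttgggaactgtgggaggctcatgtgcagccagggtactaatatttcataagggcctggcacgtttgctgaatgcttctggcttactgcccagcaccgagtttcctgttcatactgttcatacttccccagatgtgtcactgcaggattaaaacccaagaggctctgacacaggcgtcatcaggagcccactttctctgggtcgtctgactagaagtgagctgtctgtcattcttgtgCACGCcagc
Il1r1, downstream start, chr1:40266336-40266635, plus strand: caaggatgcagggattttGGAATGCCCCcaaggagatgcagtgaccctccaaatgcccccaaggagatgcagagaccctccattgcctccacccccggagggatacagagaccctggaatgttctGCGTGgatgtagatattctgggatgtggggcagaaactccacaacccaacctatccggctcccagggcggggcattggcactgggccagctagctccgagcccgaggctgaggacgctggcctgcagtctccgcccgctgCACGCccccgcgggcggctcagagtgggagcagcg
Il1f10, chr2:24290946-24291245, plus strand: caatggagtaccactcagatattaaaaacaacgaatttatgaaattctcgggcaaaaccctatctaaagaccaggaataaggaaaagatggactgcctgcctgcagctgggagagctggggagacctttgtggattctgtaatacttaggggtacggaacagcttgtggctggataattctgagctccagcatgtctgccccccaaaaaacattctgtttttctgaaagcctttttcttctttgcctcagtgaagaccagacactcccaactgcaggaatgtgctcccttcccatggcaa
Il1rap, chr16:26581455-26581754, plus strand: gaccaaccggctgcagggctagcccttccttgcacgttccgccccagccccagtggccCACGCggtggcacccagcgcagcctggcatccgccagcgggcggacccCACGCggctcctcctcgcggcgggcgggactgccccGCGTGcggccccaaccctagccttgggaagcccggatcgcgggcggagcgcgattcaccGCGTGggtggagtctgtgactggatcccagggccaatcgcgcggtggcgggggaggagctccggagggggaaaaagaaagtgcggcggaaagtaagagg

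GCGTG occurred in 5 of the 15 windows (33.3%), against 32.4% of the 32851 windows of that length in the table. The matches lay in 4 genes: 4 in the Il1rap window, 3 in Il1r2, 3 over both Il1r1 windows and 1 in 1 of the Il1rn windows. The Il1b window held none, and neither did those of Il1a, Il1f10, Il18, Casp1 and Il18r1. TATAAA was present in 4 windows (26.7%, against 13.6% of all windows), beginning 31 bases before the start in Il1b and 32 bases before it in Il1a. The nuclear factor kappa B consensus matched once, in the downstream Il1r1 window (6.67% of the windows, against 8.46% of all). A match is a description of letters and not a binding site.

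Markers of the label were read first. All 12 listed Langerhans cell markers were on the array. Of these, 11 passed the filter on low signal, a mean log2 signal of 6.85, as did 13576 of all 22626 non-control probe sets. All 5 melanocyte and 7 of 10 T cell markers on the array passed too, so passing alone does not show cell type. Signals ranged widely within the list. Itgax read between 115.3 and 230.7, and Mpeg1 lay below the filter, both chosen after their values were seen. Epcam, an adhesion molecule of Langerhans cells, had a signal between 7541 and 10032. Cd207, which encodes langerin, read 5343 and 2155 on TCDD 1 and 2, against 2120 and 7211 on controls 1 and 2. RNA quality differed: the ratio of 3′ to 5′ actin signal was 3.48 and 7.71 on TCDD 1 and 2, against 49.7 and 4.64 on controls 1 and 2. Values without control 1 are therefore given too. Over all 13576 tested probe sets, 0 were called higher and 0 lower after TCDD at an adjusted p under 0.05 (limma, 0% in each direction), while 199 (1.47%) had an unadjusted p under 0.05.

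Il1b, the cytokine that caspase-1 releases from its precursor, had a MAS5 signal (the array's linear intensity) of 6031 on TCDD 1 and 9509 on TCDD 2, against 3882 on control 1 and 4178 on control 2. Both TCDD arrays lay above both controls, and the distance was larger in back skin. The TCDD minus control difference in mean log2 signal was 0.91 ± 0.32 (SE, n = 2 per group), 1.88-fold between geometric means. It was 0.86 without control 1 and 0.96 without control 2. Of the 13576 tested probe sets, 327 had a difference at least as large in size, Il1b included. Because Il1b was picked by this contrast, nothing is read from that rank. In RNA from a sorted population, fewer cells of a type and less RNA per cell cannot be told apart.

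Il1a, the membrane-associated and intracellular alpha cytokine, was dim. Its probe set read 75 on TCDD 1 and 121.5 on TCDD 2, against 123.7 on control 1 and 25.5 on control 2, and did not pass the filter. The groups overlapped, and control 2 fell short of 40.6, the 20th percentile of signals on its array. Il18, the other caspase-1 substrate among the members, read 1320 and 879 on TCDD 1 and 2, against 1643 and 1302 on controls 1 and 2. It was lower on the TCDD array of each preparation, but TCDD 1 lay just above control 2, so the groups overlapped. The log2 difference was -0.44 ± 0.34 (SE, n = 2 per group).

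Il1f10 read 57.7 on TCDD 1 and 132.1 on TCDD 2, against 162.7 on control 1 and 347.4 on control 2. Both TCDD arrays lay below both controls, and within each group the back skin array was the higher one. The log2 difference was -1.45 ± 0.43 (SE, n = 2 per group), or 0.367-fold. It was -1.99 without control 1 and -0.90 without control 2. The geometric mean was 87.3 in TCDD samples and 237.7 in controls, on either side of the filter's 115.

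Il1rn, the receptor antagonist, was measured by 3 probe sets. The brightest, 1425663_at, read 618.3 and 552.6 on TCDD 1 and 2, against 572.2 and 830.8 on controls 1 and 2 (log2 difference -0.24 ± 0.36, SE, n = 2 per group). The second, 1451798_at, read 357.4 and 271.1 on TCDD 1 and 2, against 274.5 and 420.9 on controls 1 and 2 (-0.13 ± 0.38). Both were highest on control 2, with TCDD 1 next, and the groups overlapped. The third, 1423017_a_at, read 186.9 and 38.9 on TCDD 1 and 2, against 29.7 and 95.2 on controls 1 and 2, and did not pass the filter. Its highest array was TCDD 1, so the probe sets differed in which array led. All 3 were higher on TCDD 1 than on control 1 and lower on TCDD 2 than on control 2. Without control 2 the differences of 1425663_at and 1451798_at turned positive, at 0.03 and 0.18, and without control 1 they were -0.51 and -0.44.

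Il1r1, the signalling receptor, read 315.3 on TCDD 1 and 299 on TCDD 2, against 145.2 on control 1 and 109.9 on control 2. The TCDD arrays were close to each other and both lay above both controls. The log2 difference was 1.28 ± 0.38 (SE, n = 2 per group), or 2.43-fold, the largest positive one among the tested member probe sets. It was 1.48 without control 1 and 1.08 without control 2. Across the tested probe sets, 10, Il1r1 included, were higher after TCDD in both preparations with a smaller ratio at least as large as that of Il1r1. For Il1b that number was 83, and for Il1f10, in the lower direction, it was 6. Il1b, Il1r1 and Il1f10 were picked by these same ratios, so nothing is read from their ranks.

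**Figure D1:**
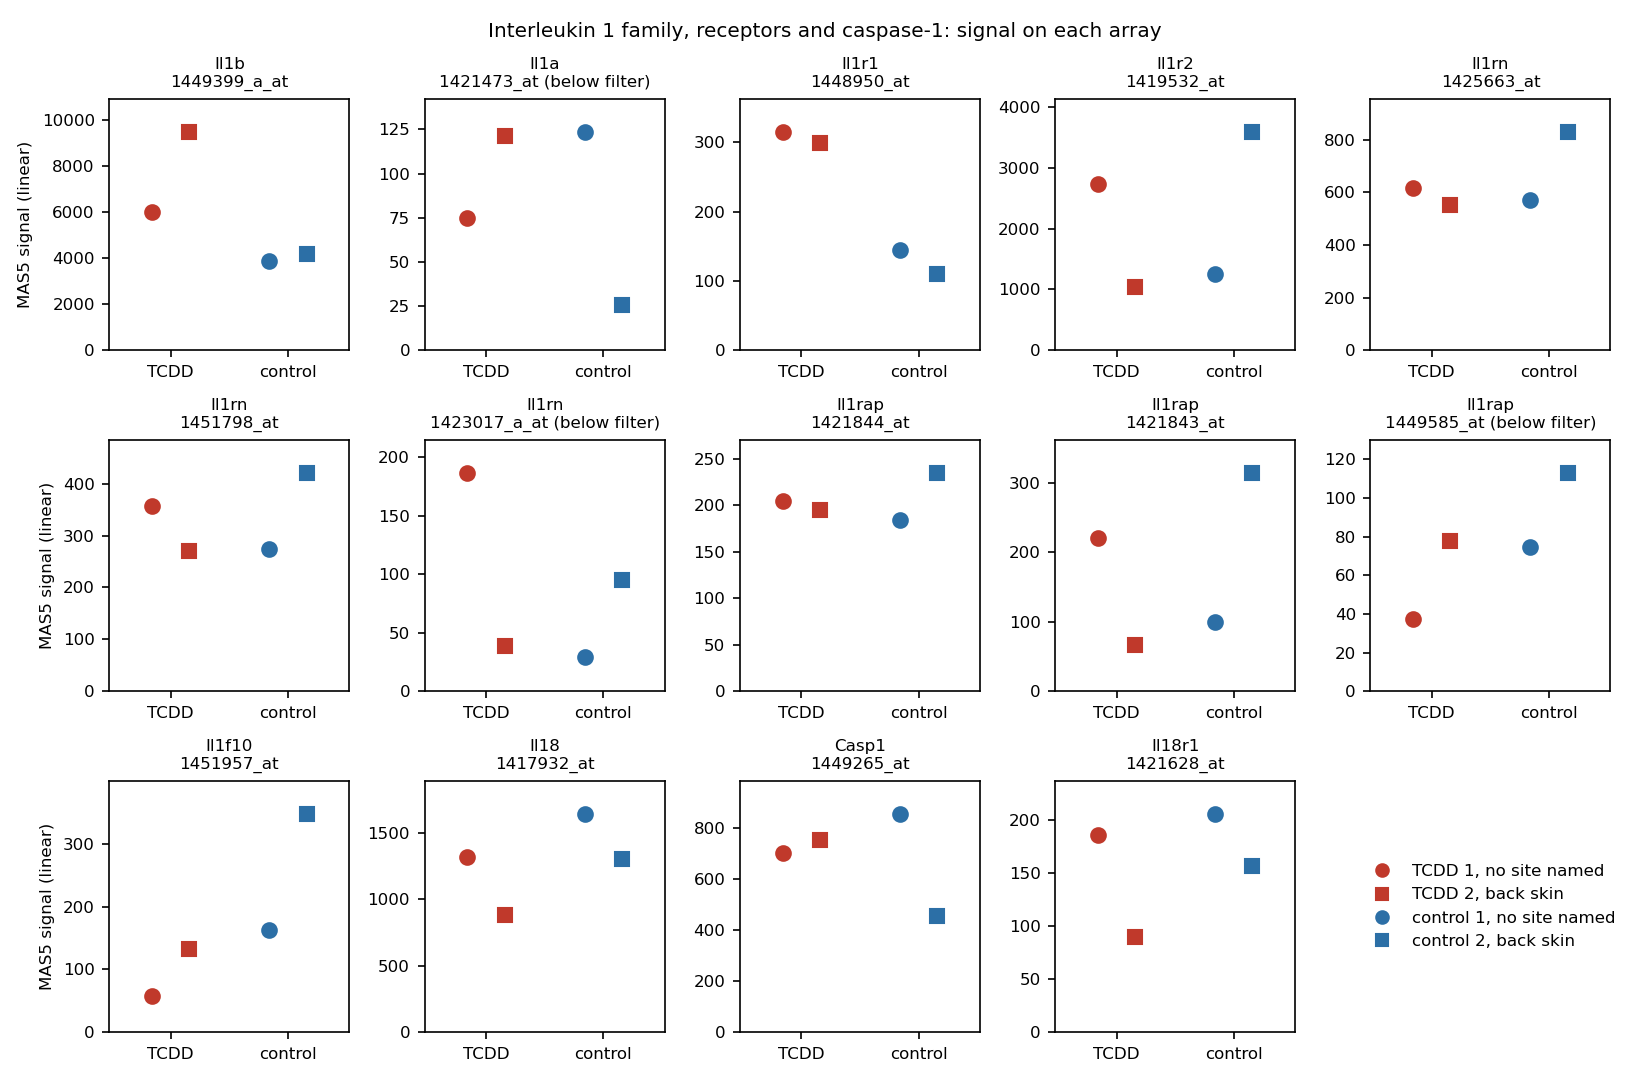
MAS5 signal (linear, each panel from 0) of the 14 member probe sets on TCDD arrays (red, left) and control arrays (blue, right), with circles for the preparation with no site named and squares for back skin. Il1b and Il1r1 are higher on both TCDD arrays and Il1f10 lower, while Il1r2 and Il1rap 1421843_at are highest on control 2 and TCDD 1.

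Il1rap, the accessory chain, was also measured by 3 probe sets, and these disagreed. The probe set 1421844_at was level across arrays, at 205.1 and 195 on TCDD 1 and 2, against 184.7 and 235 on controls 1 and 2. The probe set 1421843_at, which the annotation assigns to the same source sequence, read 220 and 66.2 on TCDD 1 and 2, against 99.5 and 314.3 on controls 1 and 2. Its highest and lowest arrays were both from back skin. The third, 1449585_at, read 37.7 and 77.6 on TCDD 1 and 2, against 74.8 and 113.1 on controls 1 and 2, and did not pass the filter. The log2 difference between TCDD and control was -0.06 ± 0.38 for 1421844_at and -0.55 ± 0.72 for 1421843_at (SE, n = 2 per group). The larger error belonged to the probe set whose arrays spread more. Without control 2 both turned positive, at 0.11 and 0.28, and without control 1 they were -0.23 and -1.38.

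Il1r2, the decoy receptor, read 2737 on TCDD 1 and 1042 on TCDD 2, against 1256 on control 1 and 3590 on control 2. The groups overlapped fully, with the highest and the lowest array both from back skin. The log2 ratio of TCDD to control was 1.12 where no site was named, but -1.78 in back skin, and the difference over all arrays was -0.33 ± 0.60 (SE, n = 2 per group). It was -1.09 without control 1 and 0.43 without control 2, so its sign turned with the array left out. Il18r1, the ligand-binding chain of the interleukin 18 receptor, read 185.6 and 89.7 on TCDD 1 and 2, against 205.6 and 156.4 on controls 1 and 2. It was lower on the TCDD array of each preparation, and the groups overlapped (log2 difference -0.47 ± 0.43, SE, n = 2 per group).

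Casp1, the protease that matures Il1b and Il18, read 699.3 and 753.3 on TCDD 1 and 2, against 854.8 and 453.9 on controls 1 and 2. Both TCDD values lay between those of the controls. The log2 difference was 0.22 ± 0.38 (SE, n = 2 per group), 0.68 without control 1 and -0.24 without control 2.

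Across the family, 11 of the 14 probe sets, from 9 genes, passed the filter. Of these 11, 2 were higher after TCDD in both preparations, where 19.3% of all tested probe sets were, 3 were lower in both (21.3% of all) and 6 went opposite ways (59.4% of all). Both TCDD arrays lay above both controls for 2 of them (12.4% of all) and below for 1 (13.2% of all). Since the choice of genes used this contrast, nothing is read from these counts. The median log2 difference, from which nothing is read either, was -0.24 over the 11 probe sets, against -0.01 over all tested ones. Of the 3 probe sets below the filter, Il1rap 1449585_at was lower in both preparations, and those of Il1a and Il1rn went opposite ways.

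**Figure D2:**
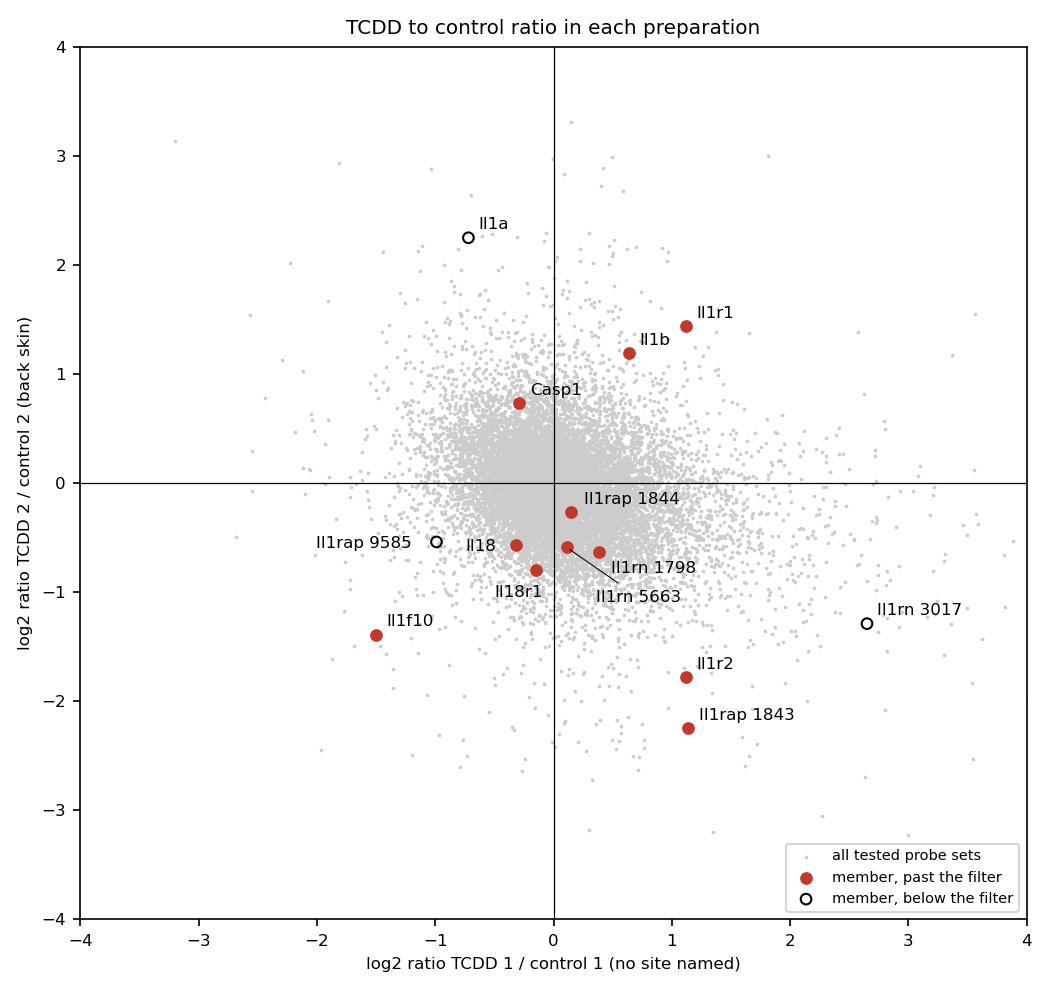
The log2 ratio of TCDD 1 to control 1 (no site named, horizontal) and of TCDD 2 to control 2 (back skin, vertical) for the 14 member probe sets and all tested probe sets (grey, of which 6 lie outside the axes). Il1b and Il1r1 lie in the upper right, Il1f10 in the lower left, and Il1r2 and Il1rap 1421843_at in the lower right, at 1.12 and 1.14 on the horizontal axis, -1.78 and -2.25 on the vertical one.

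Among the member probe sets whose TCDD ratios went opposite ways, 6 were higher after TCDD where no site was named but lower after it in back skin, and 2, of Il1a and Casp1, were the reverse. The 6 comprised Il1r2, the 3 Il1rn probe sets and 2 of Il1rap, and 5 of them passed the filter (33.5% of all tested probe sets had this pattern). Of these, Il1r2, both Il1rn probe sets past the filter, and both Il1rap ones were highest on control 2 and next highest on TCDD 1. Markers of other cells were read beside them. T cell markers, among them genes of the epidermis's own dendritic T cells, summed to 1661 and 866.5 on TCDD 1 and 2, against 844 and 2330 on controls 1 and 2. Of these 10 markers 7 passed the filter, and 6 of the 7 had a positive log2 ratio where no site was named but a negative one in back skin, as did 31.3% of all genes. Cd3e, part of the CD3 signalling module, read 386.9 and 112.7 on TCDD 1 and 2, against 197.5 and 471.3 on controls 1 and 2. The Langerhans cell markers showed the pattern too, in 6 of 11 past the filter and the reverse in 0, and summed to 52259 and 48971 on TCDD 1 and 2, against 42655 and 63084 on controls 1 and 2. Cd207 among them was likewise highest on control 2 and next on TCDD 1, with control 1 and TCDD 2 close together at 2120 and 2155. Il1r2, Il1rap 1421843_at and Cd3e were lowest on TCDD 2, but the T cell marker sum, like Cd207, was lowest on control 1. Which array was lowest thus does not separate the marker lists. The ratio of 3′ to 5′ actin signal also set TCDD 1 and control 2 apart from TCDD 2 and control 1. It was 3.48 on TCDD 1 and 4.64 on control 2, against 7.71 on TCDD 2 and 49.7 on control 1. The part of either marker list, or of RNA quality, in the receptor values was not tested.

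**Figure D3:**
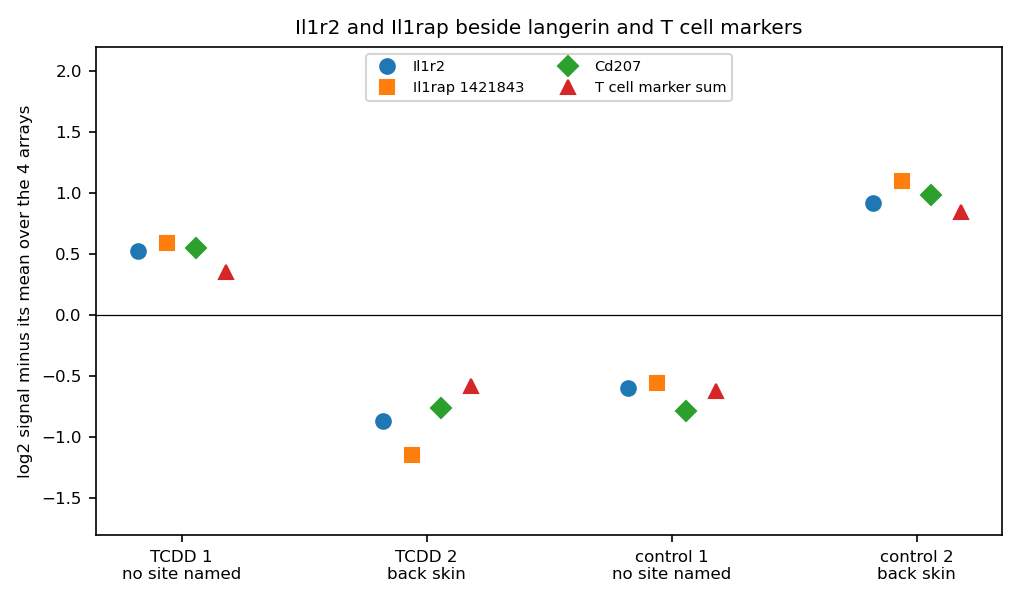
The log2 signal of Il1r2, Il1rap 1421843_at and Cd207, and of the summed signal of 10 T cell markers, each minus its mean over the 4 arrays, with TCDD arrays at the left and controls at the right. All 4 series lie above 0 on TCDD 1 and control 2 and below 0 on TCDD 2 and control 1.

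The summed signals of the other marker lists had a narrower spread over the arrays. Such sums mostly follow the brightest markers, and some single markers varied more. Kit, a mast cell marker chosen after its values were seen, read between 124 and 381.1. Keratinocyte markers (11 on the array) summed to 1598 and 2136 on TCDD 1 and 2, against 1815 and 1588 on controls 1 and 2, with Krt14, a basal keratin, between 166.1 and 249.5. Other keratins varied more, as is given with Il1f10 below. Mast cell, granulocyte and monocyte markers (10 on the array) summed to 1270 and 1300 on TCDD 1 and 2, against 1427 and 1273 on controls 1 and 2. S100a8, an abundant neutrophil transcript, read at most 26.4, below the 20th percentile signal of every array. Fibroblast and endothelial markers (10) summed to 1189 and 1046 on TCDD 1 and 2, against 1192 and 1440 on controls 1 and 2, with Col1a1, a collagen chain, between 124 and 257.8. Melanocyte markers (5) summed to 1044 and 955 on TCDD 1 and 2, against 1006 and 1269 on controls 1 and 2, with Pmel, a melanosome protein, highest at 283.4 on control 2. B cell, erythroid and platelet markers (6) summed to 664 and 807 on TCDD 1 and 2, against 829 and 641 on controls 1 and 2. Their part in the family's values was not tested.

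The comparison of back skin with the preparation with no site named was not used to choose the genes and was tested. The 11 member probe sets gave 0 calls at an adjusted p under 0.05 (limma, adjusted p = 0.9994 for each), as did all 13576 tested probe sets (0% in each direction). At an unadjusted p under 0.05 there was 1 member call, Il1f10, against 2.02% of all tested probe sets. Il1f10 had a signal of 132.1 and 347.4 in back skin (TCDD 2 and control 2), against 57.7 and 162.7 with no site named (TCDD 1 and control 1). The back skin minus no site named log2 difference was 1.14 ± 0.43 (SE, n = 2 per preparation, limma, unadjusted p = 0.026), or 2.21-fold, with a higher value in back skin in both groups. A call over the whole table was not reached. The geometric mean was 214.2 in back skin and 96.9 with no site named, on either side of the filter's 115, so the probe set entered this test through back skin. Without single arrays the difference ranged from 0.40 to 1.89. Among keratinocyte markers, Krt5, a basal keratin, read 156 and 211.5 in back skin (TCDD 2 and control 2), against 72.5 and 83.7 with no site named (TCDD 1 and control 1), a log2 difference of 1.22 ± 0.47 (SE, n = 2 per preparation). Krt1, a keratin of differentiating layers and below the filter, read 213.6 and 127.3 in back skin, against 96.6 and 18.9 with no site named. The geometric mean of Krt5 was 181.6 in back skin and 77.9 with no site named, also on either side of the filter. Not all of the list was higher in back skin. The log2 difference was 0.22 for Krt14, -0.34 for Krt10 and -0.73 for Dsp. Krt5, Krt1, Krt10 and Dsp were chosen after their values were seen. The part of keratinocyte markers in the Il1f10 difference was not tested.

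Il18 and Il18r1, the cytokine and a chain of its receptor, were the members whose back skin arrays both lay below both others. This made 2 of the 11 (15.9% of all tested probe sets), and 0 lay entirely above (16.1% of all). For Il18 the values were 879 and 1302 in back skin (TCDD 2 and control 2), against 1320 and 1643 with no site named (TCDD 1 and control 1). The log2 difference was -0.46 ± 0.34 for Il18, with a 95% interval of -1.24 to 0.32, and -0.72 ± 0.43 for Il18r1, with an interval of -1.70 to 0.26 (SE, n = 2 per preparation). Il1b differed by 0.38 ± 0.32 (interval -0.36 to 1.12) and Il1r1 by -0.24 ± 0.38 (interval -1.11 to 0.63). These intervals leave room for differences of 2-fold or more in at least 1 direction. Il1r2 differed by 0.06 ± 0.60, from log2 ratios of back skin to no site named of -1.39 on TCDD arrays and 1.51 on controls. The median over the 11 probe sets was 0.06, against 0.01 over all tested ones.

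**Figure D4:**
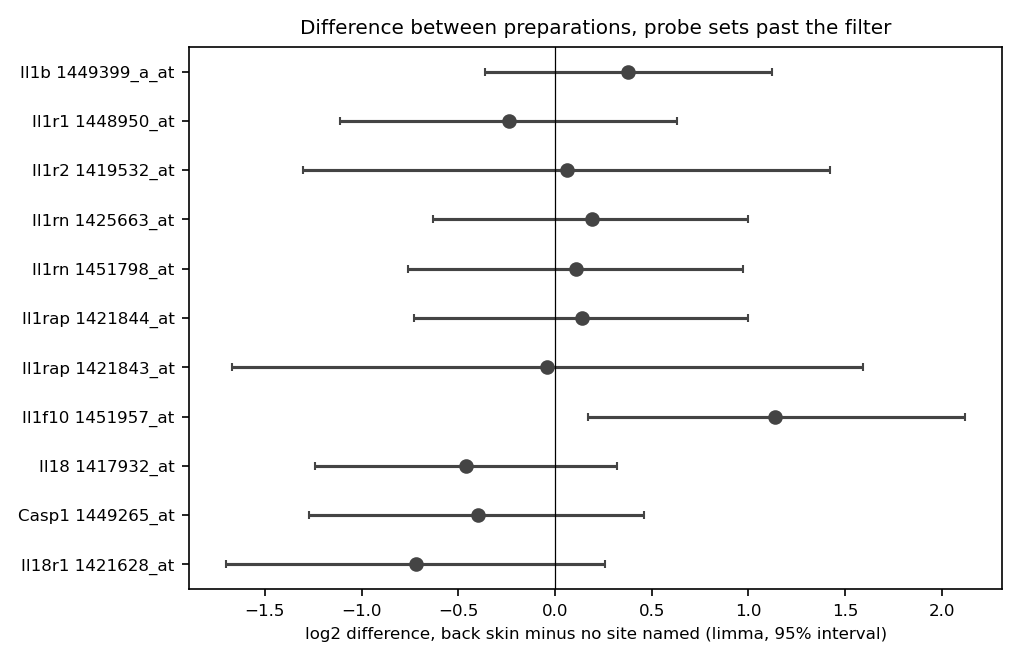
The log2 difference between back skin and the preparation with no site named for the 11 member probe sets past the filter, with 95% intervals from limma. The interval of Il1f10, 0.17 to 2.12, lies above 0 and the others include 0. Il1f10 passed the filter through back skin, where it is higher, and its adjusted p was 0.9994 (limma).

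The pathway around the family was read through 68 further genes, of which 55 were on the array and 41 passed the filter, each by its brightest probe set. After TCDD, 0 of the 41 passed the test in either direction (limma, adjusted p = 0.9999 for each, 0% of 8413 genes). In both preparations 5 were higher (17.9% of all genes) and 7 lower (22.8% of all genes), with a median log2 difference of -0.01, against -0.03 over all genes. The difference changed sign for 14 of the 41 without control 2 and for 15 without control 1. Of 3 further ligands past the filter, 1 was lower in both. This was Il1f9, an interleukin 36 cytokine, which read 315.2 and 248.5 on TCDD 1 and 2, against 316.5 and 413.7 on controls 1 and 2 (log2 difference -0.37 ± 0.36, SE, n = 2 per group). Of the remaining receptors, Sigirr, an inhibitory member of the receptor family, differed by -0.30 ± 0.35 and Il18rap, the accessory chain for interleukin 18, by -0.25 ± 0.44. Il1rl2, the interleukin 36 receptor, and Il18bp, a soluble inhibitor of interleukin 18, lay below the filter and were lower in both preparations. Il1rl2 read 73.6 and 18.6 on TCDD 1 and 2, against 88.4 and 40.3 on controls 1 and 2. Il18bp read 30.7 and 20.3 on TCDD 1 and 2, against 85.7 and 34.6 on controls 1 and 2. All Il18bp values but that of control 1 lay below the 20th percentile signal of their arrays, as did both back skin values of Il1rl2.

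Of 10 inflammasome and processing genes past the filter, 1 was higher and 1 lower in both preparations. Nlrp3, the sensor of the inflammasome that activates caspase-1, read 167.4 and 165.9 on TCDD 1 and 2, against 134.7 and 53 on controls 1 and 2. Both TCDD values lay above both controls, with control 2 far below the other 3 arrays. The log2 difference of 0.98 ± 0.52 (SE, n = 2 per group) was the largest among the 41 genes past the filter. It was 1.65 without control 1 and 0.31 without control 2, and the geometric mean of 166.6 in TCDD samples and 84.5 in controls lay on either side of the filter. Below the filter, Il33, an alarmin cytokine of the family whose values were seen before it was picked, read 75.5 and 57.2 on TCDD 1 and 2, against 20.5 and 13 on controls 1 and 2. The control values lay below the 20th percentile signal of their arrays. Pycard, the adaptor between Nlrp3 and caspase-1, read 505 and 860.6 on TCDD 1 and 2, against 779.9 and 492.9 on controls 1 and 2 (0.09 ± 0.42). Casp8, an apical caspase, was the one lower in both preparations (-0.31 ± 0.34).

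Of 17 genes of signalling next to the receptor, 2 were higher and 3 lower in both preparations. Myd88, the adaptor of the receptor, differed by 0.08 ± 0.35 (SE, n = 2 per group), and Traf6, the ubiquitin ligase downstream of it, by -0.19 ± 0.38. Irak1, a kinase recruited through Myd88, read 552.9 and 2063 on TCDD 1 and 2, against 2399 and 1010 on controls 1 and 2. Its log2 ratios of -2.12 where no site was named, and 1.03 in back skin, ran opposite to those of Il1r2. Its difference of -0.54 ± 0.63 became 0.08 without control 1 and -1.17 without control 2. Ecsit, a signalling adaptor, differed by -0.38 ± 0.34, by -0.31 without control 1 and by -0.45 without control 2. Ikbkg, the regulatory subunit of the IκB kinase, differed by -0.38 ± 0.37, but by 0.04 without control 1 and -0.81 without control 2. It read 660.7 and 655.8 on TCDD 1 and 2, against 1152.1 and 641.3 on controls 1 and 2, so its difference rests on control 1. Of 9 response genes, 2 were higher and 1 lower in both. Nfkbia, the inhibitor induced by nuclear factor kappa B, differed by -0.20 ± 0.26, with signals of 19912 and 25560 on TCDD 1 and 2, against 23449 and 28623 on controls 1 and 2.

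Between preparations, too, the test called 0 of the 41 pathway genes (limma, each with an adjusted p = 0.9994, 0% of 8413 genes). Back skin was higher on both the TCDD and the control arrays for 6 of them (23.1% of all genes) and lower on both for 14 (22.5% of all genes). The median was -0.15, against 0 over all genes. The largest differences were those of Tab3, a binding partner of the kinase Map3k7 (-0.98 ± 0.39, SE, n = 2 per preparation), and Peli1, an E3 ligase that acts on Irak1 (-0.83 ± 0.34). Peli1 read 1259 and 1213 in back skin (TCDD 2 and control 2), against 2391 and 2023 with no site named (TCDD 1 and control 1). The channel gene Panx1 (-0.72 ± 0.42), Nlrp3 (-0.68 ± 0.52), Il6 (-0.64 ± 0.38) and Il1f6 (0.57 ± 0.36) followed.

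**Figure D5:**
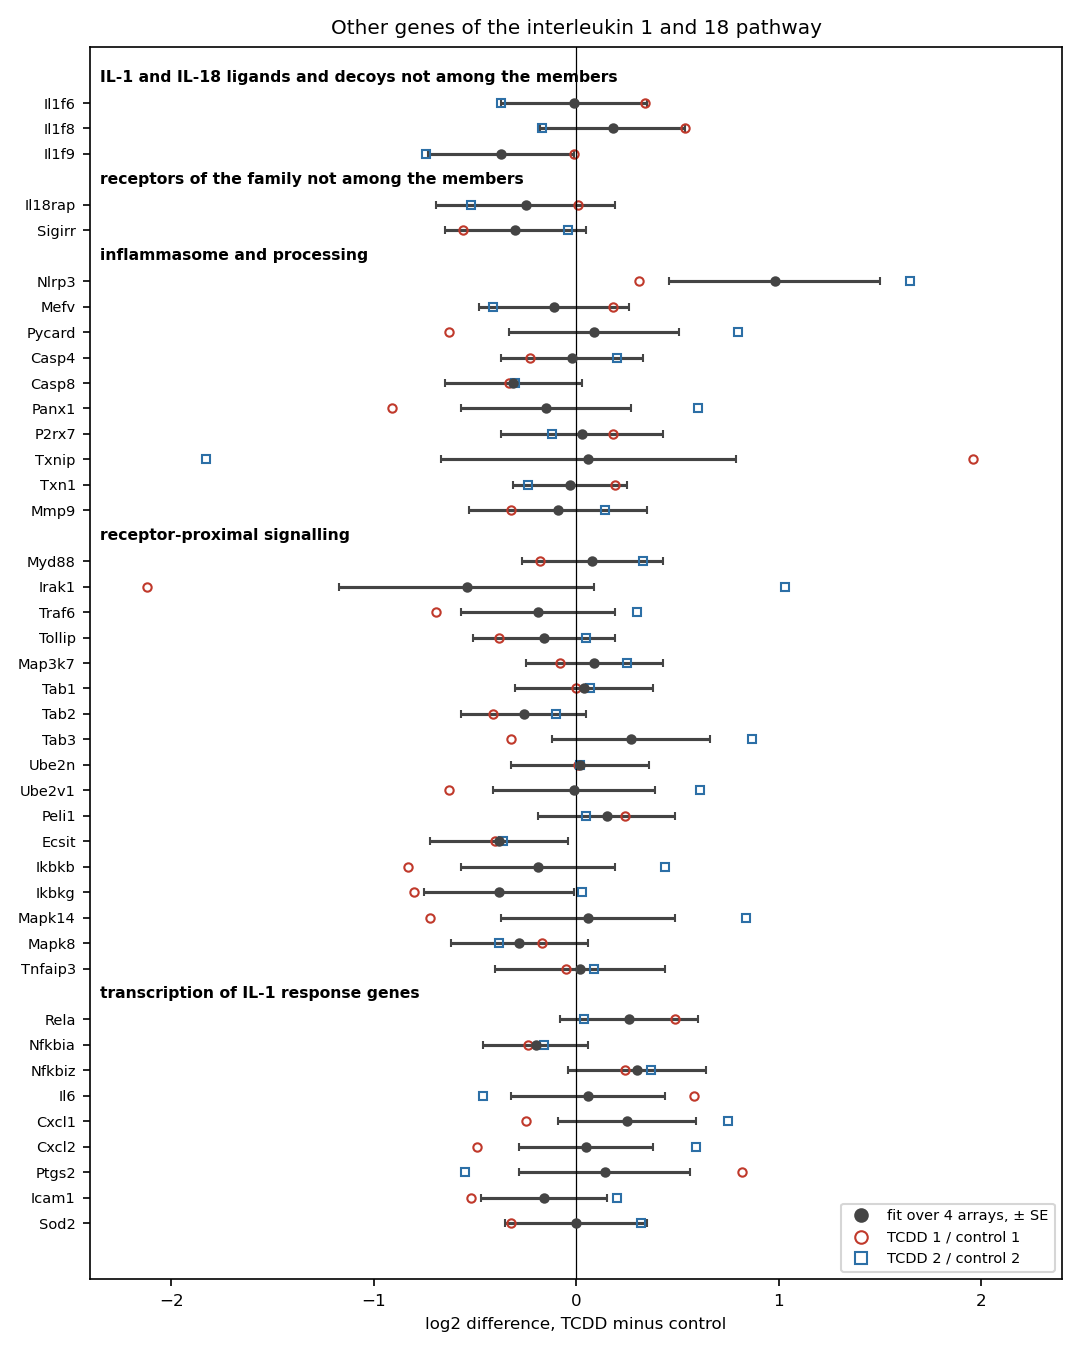
The TCDD minus control log2 difference of the 41 pathway genes past the filter, as the fit over 4 arrays with its SE (filled) and as the ratio within the preparation with no site named (open circles) and within back skin (open squares). Nlrp3 has the largest fitted difference of these 41 at 0.98, and the ratios of Irak1, -2.12 and 1.03, lie far apart on opposite sides of 0.

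The probe sets whose pattern over the 4 arrays was most like that of Il1b were those of Evc, Bad, Sgcb, Pkib and Brca2. Likeness was the root mean square difference between log2 signals after centring each probe set on its own mean, and ranged from 0.077 for Evc to 0.129 for Brca2 among 12416 candidates. Bad, a pro-apoptotic member of the BCL2 family, read 403.5 and 590.1 on TCDD 1 and 2, against 285.6 and 279.9 on controls 1 and 2. With 4 arrays and so many candidates, such likeness carries no test.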

How the data were processed

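Expression in sorted Langerhans cells was read on 4 Affymetrix arrays of 1 colour. Per the submitters' processing notes, affy and MAS5 were used; their versions, and the build, were not given in the sources used here. What the authors deposited is the MAS5 signal, a linear intensity, already scaled: each array's mean was 500 after removal of the lowest and highest 2% of probe sets. Of 22690 probe sets, 64 controls served only for RNA quality. Of the others, 20380 had 1 symbol in the platform annotation, 691 several and 1555 none; 20351 of the single symbols matched a RefSeq gene (GRCm38.p6) through gene ID.

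Signals were taken to log2 and probe sets at or above the 40th percentile of mean log2 signal (6.85, a signal of 115) were fitted with limma 3.58.1 in R 4.3.3. Treatment and preparation were additive terms, eBayes used a variance trend, and Benjamini-Hochberg adjustment covered all 13576 probe sets at 0.05. Only 1 residual degree of freedom remains for each probe set, and the number of arrays limits the precision (median SE 0.364 log2 units). Detection calls were not used here.

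Arrays of one preparation did not deviate together: back skin minus no site named correlated at r = -0.18 between TCDD and control arrays, across probe sets. That same-site arrays form a pair is taken from their labels. The members and lists were chosen with earlier results of these data known. Named genes are all members, 12 pathway genes chosen by role where measured, the 6 pathway genes with the largest difference in each contrast, the 5 probe sets most like Il1b and the defining markers of the cell type lists. Alternatives were other normalizations, filters, offsets, variance models and blocks, and each array left out. Promoter windows were searched with Python 3.11.15.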

Additional observations from a re-analysis of the deposited data

Results flagged for a closer look

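The log2 ratio of TCDD to control had opposite signs in the preparations for 8 member probe sets. Each preparation is a single pair of arrays, so these differences were not tested. The ratio in back skin minus that with no site named was -2.91 for Il1r2, -3.39 and -0.42 for Il1rap (1421843_at and 1421844_at), and -0.70, -1.02 and -3.94 for Il1rn (1425663_at, 1451798_at and 1423017_a_at). It was 2.97 for Il1a and 1.02 for Casp1. The value of 1423017_a_at rests on control 1 at 29.7 and that of Il1a on control 2 at 25.5, both below their array's 20th percentile signal (36.6 and 40.6), so their sizes are not exact. Over all tested probe sets, 59.4% went opposite ways.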

How the results depend on the processing

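Over all probe sets, TCDD against control gave 0 calls under each of the 8 planned changes of normalization, filter, scale, variance trend or preparation term, and between 0 and 285 with an array left out: 12 without control 1 and 285 without control 2. Such fits leave a lone array in a group and assume that it varies like the others. The preparation fit gave 0 to 89 calls with an array left out (89 without TCDD 1) and 0 otherwise. Since same-site arrays did not deviate together, control 1 with TCDD 2 and control 2 with TCDD 1 were also taken as the block, a setting chosen after seeing the data, and 10 probe sets passed. The fit without a replicate block gave 0 calls.

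The TCDD difference of the 11 tested member probe sets kept its sign under the other settings, and an offset of 50 lowered that of Il1r1 to 1.02 and brought that of Il1f10 to -1.05. With an array left out, 7 probe sets changed sign and those of Il1b (0.58 to 1.24), Il1r1 (1.08 to 1.48), Il1f10 (-2.04 to -0.85) and Il18 (-0.73 to -0.15) did not. The preparation difference changed sign for Il1r2 with median centring (-0.0017) and Il1rap 1421843_at with the offset (0.03). With an array left out it ranged from -0.21 to 0.97 for Il1b, -0.96 to 0.48 for Il1r1, -0.83 to 0.95 for Il1r2, -0.11 to 0.48 and -0.21 to 0.43 for Il1rn (1425663_at, 1451798_at), and -1.16 to 1.09 for Il1rap 1421843_at. It kept its sign for Il1f10 (0.40 to 1.89), Il18, Casp1, Il18r1 and Il1rap 1421844_at. The cause of these changes was not tested. Quantile normalization or median centring moved member signals by at most 7.7%.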
